A study of Mus musculus with 24 samples.

Results

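The leukocyte integrins examined here were 10 subunit genes, Itgal, Itgam, Itgax and Itgb2 of the β2 family, Itga4, Itgb1 and Itgb7 of the α4 and β1 group, and Itgav, Itgb3 and Itgb5 of the αv group. They were taken by symbol, as 10 of the 54658 gene rows of the deposited count tables. The rule reads symbols alone, but the 10 were chosen with earlier results of these data known. All 10 passed the low-count filter in each of the 3 tissues. RNA had been sequenced from male C57BL/6 mice, 7 to 12 weeks old, in a peritonitis and sepsis study of β-nicotinamide mononucleotide (β-NMN), a precursor of NAD+. In the first experiment, sterile peritonitis was raised with thioglycollate medium (TGC), mice received daily β-NMN at 185 mg/kg (6 libraries) or saline vehicle (6 libraries), and the lavage cells were plated and kept with E. coli for 6 h before lysis, so that both groups carried TGC and bacteria. In the second, hearts and lungs came from mice with cecal ligation and puncture (CLP), a model of polymicrobial sepsis, given β-NMN at 185 mg/kg (3 mice) or vehicle (3 mice). The source field of the heart and lung labels names thioglycollate, whereas their titles, tissue field and the study's methods give CLP, which was followed here. No sham or unstimulated library was analysed here, so each comparison is between treated animals under the same insult.

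Integrins are transmembrane receptors made of 1 α and 1 β chain. A β chain can pair with several α chains, and leukocytes use the pairs to arrest on vessel walls, crawl through tissue, bind complement-coated particles and hold on to matrix. LFA-1 is the pair of αL (Itgal) with β2 (Itgb2) and binds ICAM proteins on other cells. Mac-1, or complement receptor 3, is αM (Itgam) with β2, and p150,95 is αX (Itgax) with β2. VLA-4 is α4 (Itga4) with β1 (Itgb1) and binds VCAM1 and fibronectin, while α4 with β7 (Itgb7) binds MADCAM1 of gut vessels. The αv chain (Itgav) pairs with β1, β3 (Itgb3) or β5 (Itgb5), binds vitronectin and osteopontin, and takes part in the uptake of dying cells. The chains are switched on from inside the cell when talin and a kindlin bind the β tail, a step called inside-out activation, and they then signal back through Src family kinases, SYK and focal adhesion proteins.

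Among the members, the genes of the 3 α chains that pair with β2 lay on the plus strand of chromosome 7 in the GRCm38 mouse genome. Itgal was at 127296260 to 127335138, Itgam at 128062640 to 128118491 and Itgax at 128129547 to 128150657. Itgb2 lay on chromosome 10 at 77530252 to 77565708. The coding sequence of the intracellular tail is given below for these 4 chains, because in peritoneal cells the mRNA of 1 of the α chains parted from that of the common β chain. Each run is read from the GENCODE M21 transcript and ends with the stop codon. Capitals in the α chains mark the codons of the conserved membrane-proximal motif at which the printed stretch begins, and capitals in Itgb2 mark the codons of both asparagine-containing motifs to which talin and kindlin proteins bind.
Itgal: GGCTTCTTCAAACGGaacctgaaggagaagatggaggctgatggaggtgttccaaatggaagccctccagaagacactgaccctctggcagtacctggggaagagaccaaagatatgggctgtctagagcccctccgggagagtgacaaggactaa
Itgam: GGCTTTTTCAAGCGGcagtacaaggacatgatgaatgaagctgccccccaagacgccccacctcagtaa
Itgax: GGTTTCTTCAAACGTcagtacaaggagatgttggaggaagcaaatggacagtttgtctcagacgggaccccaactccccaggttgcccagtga
Itgb2: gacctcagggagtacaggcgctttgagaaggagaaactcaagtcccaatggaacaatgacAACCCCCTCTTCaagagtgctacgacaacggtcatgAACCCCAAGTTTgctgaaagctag
The printed exonic stretches lie at chr7:127333455-127333610, chr7:128117309-128117377, chr7:128150102-128150194 and chr10:77564748-77565240, the last interrupted by an intron. From the first codon of the motif to the last before the stop, the α tails differed in length, with 51 codons for Itgal, 22 for Itgam and 30 for Itgax.

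The promoters of the 4 members that were higher with β-NMN in peritoneal cells are also shown, as the 250 bases before the RefSeq start on GRCm38.p6, in the gene's direction. Capitals mark GAGGAA, a core bound by PU.1-type factors of myeloid cells, and GGGCGG, the GC box bound by Sp1-type factors, on either strand (TTCCTC and CCGCCC on the other); they do not overlap each other. The Itgax stretch is at chr7:128129300-128129549, Itgb1 at chr8:128685404-128685653, Itgav at chr2:83724147-83724396 and Itgb5 at chr16:33829415-33829664, all on the plus strand.
Itgax: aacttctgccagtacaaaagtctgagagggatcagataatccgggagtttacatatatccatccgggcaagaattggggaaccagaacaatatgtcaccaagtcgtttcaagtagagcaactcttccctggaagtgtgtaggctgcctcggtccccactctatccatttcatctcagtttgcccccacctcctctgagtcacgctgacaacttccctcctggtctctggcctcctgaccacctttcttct
Itgb1: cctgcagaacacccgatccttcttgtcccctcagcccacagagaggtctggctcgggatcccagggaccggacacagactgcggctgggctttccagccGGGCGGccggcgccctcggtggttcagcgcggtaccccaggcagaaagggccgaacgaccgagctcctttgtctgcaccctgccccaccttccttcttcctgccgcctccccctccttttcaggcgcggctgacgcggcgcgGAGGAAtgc
Itgav: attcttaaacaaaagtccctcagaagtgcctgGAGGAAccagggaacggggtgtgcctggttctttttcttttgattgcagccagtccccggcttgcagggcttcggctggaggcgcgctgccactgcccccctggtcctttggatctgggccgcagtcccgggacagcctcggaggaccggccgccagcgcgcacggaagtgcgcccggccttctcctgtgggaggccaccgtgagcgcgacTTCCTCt
Itgb5: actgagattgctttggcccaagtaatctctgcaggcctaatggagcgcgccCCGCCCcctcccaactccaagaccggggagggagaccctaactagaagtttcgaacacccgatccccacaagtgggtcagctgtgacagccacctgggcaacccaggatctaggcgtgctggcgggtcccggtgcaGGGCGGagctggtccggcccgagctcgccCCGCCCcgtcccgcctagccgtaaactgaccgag
GAGGAA was found 2 times in the Itgav stretch, 1 time in Itgb1 and in neither Itgax nor Itgb5. GGGCGG was found 3 times in Itgb5, 1 time in Itgb1 and in neither Itgav nor Itgax. Of 32851 mouse promoter stretches of this length, 23.3% held GAGGAA and 32.7% held GGGCGG. No motif was found in all 4 stretches. The promoter table held 7 of the 10 members, with no entry for Itgal, Itgb2 and Itgb3.

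Library depth ran from 31126823 to 112456050 counts in peritoneal vehicle libraries, from 36353254 to 90903671 in peritoneal β-NMN libraries, from 27319513 to 68523239 in hearts and from 8915366 to 28356786 in lungs. In peritoneal cells 5 libraries held at least 90000000 counts (vehicle 4, 5 and 6, β-NMN 1 and 2). The vehicle libraries numbered 2 of heart and lung, from 1 mouse, stood apart from the rest of their organ. The SD across genes of the log2 difference from the other libraries was 0.99 in that heart against 0.386 to 0.577 in the other hearts, and 1.57 in that lung against 0.450 to 0.602. For the members and the named genes of other lists, organ differences that moved by over 1.5 times when this mouse was left out are given both ways. The tissue labels matched their markers, with the summed cardiomyocyte list at 29578 to 55331 CPM (read counts scaled by library size) in hearts, the alveolar list at 25754 to 46865 CPM in lungs and the macrophage list at 7645 to 14120 CPM in peritoneal cells. Levels below are in CPM unless a value is said to be per kilobase. Single genes named from the cell type marker lists, and genes of the 5 other lists named beyond the smallest p values, were picked after their values were seen.

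Per kilobase of exon, Itgb2 stood highest among the members in peritoneal cells, with a median over the 12 libraries of 439 CPM per kb (373 to 490). Itgb1 followed at 200.4 (169 to 231), then Itgb7 at 96.2 (75.3 to 124), Itgam at 54.4 (43.7 to 64.0) and Itgav at 25.2 (19.9 to 39.2), and neighbours in this order had no overlapping ranges. Itga4, Itgb5, Itgax and Itgal formed an overlapping group at medians of 14.1, 12.1, 10.3 and 7.01 CPM per kb. The Itgal range, 2.33 to 23.6, was the widest of these, and its treatment groups lay apart within it. Itgb3 was lowest at 1.61 (0.856 to 3.08), and its range touched that of Itgal. The lowest Itgb2 level thus exceeded the sum of the highest levels of its 3 α partners among the members.

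**Figure D1:**
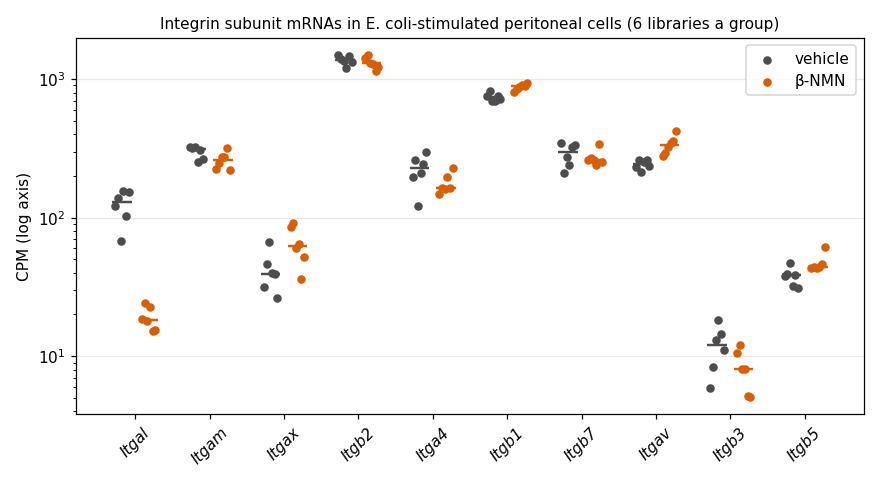
CPM (log axis) of each of the 10 integrin subunit mRNAs in 12 libraries of E. coli-stimulated peritoneal cells, 6 vehicle (grey) and 6 β-NMN (orange); short lines are group medians. Itgal separates, with vehicle at 67.7 to 155 CPM and β-NMN at 15.3 to 24.4 CPM, whereas the Itgb2 groups overlap.

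In peritoneal cells Itgal was the member with the largest difference between treatments. Vehicle libraries held 67.7 CPM at the lowest, 129 at the median and 155 at the highest, and β-NMN libraries 15.3, 18.3 and 24.4. No β-NMN library reached the lowest vehicle library, vehicle 3. Itgal fell by 2.69 on the log2 scale (SE 0.19, edgeR quasi-likelihood test, adjusted p = 8.6e-08), which was 15.5% of the vehicle level. An exact two-sided permutation test of log2 CPM gave p = 0.0022, the smallest that 6 against 6 libraries allow. In bulk RNA, fewer cells that carry a transcript and less transcript per cell cannot be told apart.

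Of the other β2 family chains, neither Itgb2 nor Itgam was called. Itgb2, the β chain with which αL must pair to reach the surface, held 1212, 1375 and 1497 CPM (lowest, median, highest) with vehicle and 1137, 1302 and 1483 with β-NMN. These ranges overlapped over most of their length, and the log2 difference was -0.07 (SE 0.09, adjusted p = 0.53). Itgam, the α chain of the complement receptor used to take up opsonized particles, ran from 254 to 322 CPM with vehicle and from 219.5 to 319.6 with β-NMN (log2 difference -0.20, SE 0.10, adjusted p = 0.12).

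Itgax, an α chain of dendritic cells and of activated macrophages, was higher with β-NMN. Vehicle libraries held 26.3, 39.3 and 66.7 CPM (lowest, median, highest) and β-NMN libraries 35.9, 62.1 and 91.8, so the groups overlapped. Itgax rose 1.56-fold (log2 0.64, SE 0.23, edgeR adjusted p = 0.031). This call rested on single libraries: without vehicle 1, 5 or 6 or β-NMN 1 or 2 the adjusted p was 0.055, 0.058, 0.063, 0.063 and 0.080, with log2 differences of 0.61, 0.62, 0.54, 0.58 and 0.52. Among the 5 deepest libraries the difference was 1.41 and among the other 7 it was 0.17 (adjusted p = 0.0025 and 0.67).

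In the α4 and β1 group 1 of the 3 members was called. Itgb1, which lies on chromosome 8 at 128685654 to 128733200 and is the common β chain of many matrix receptors, held 691, 741 and 824 CPM with vehicle and 812, 889 and 943 with β-NMN. Just 1 vehicle library, vehicle 2, lay above the lowest β-NMN library, and Itgb1 rose 1.19-fold (log2 0.25, SE 0.08, adjusted p = 0.014). The call was lost without the low-count filter, among the 5 deepest libraries and among the other 7 (log2 0.27, 0.26 and 0.29, adjusted p = 0.16, 0.15 and 0.10). Itga4 (chromosome 2, 79255426 to 79333123) spread widely among vehicle libraries, from 121 to 299 CPM, against 147 to 230.0 with β-NMN, and its log2 difference of -0.32 (SE 0.18) was not called (adjusted p = 0.14). Without vehicle 3, the library lowest in Itga4, the difference was -0.41 and was called (adjusted p = 0.017). Itgb7 (chromosome 15, 102215995 to 102231944, minus strand) ran from 209 to 344.0 CPM with vehicle and from 239.9 to 342 with β-NMN, a log2 difference of -0.08 (SE 0.13, adjusted p = 0.62).

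In the αv group the α chain separated by treatment. Itgav (chromosome 2, 83724397 to 83806916) held 214, 244 and 263 CPM (lowest, median, highest) with vehicle and 279, 336 and 421 with β-NMN. Every β-NMN library lay above every vehicle library, and Itgav rose 1.39-fold (log2 0.47, SE 0.10, adjusted p = 0.0014, exact permutation p = 0.0022). Among the 5 deepest libraries the log2 difference was 0.26 (adjusted p = 0.14) and among the other 7 it was 0.64 (adjusted p = 0.0061).

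Of the αv partner chains, Itgb5 rose and Itgb3 was not called. Itgb5 (chromosome 16, 33829665 to 33949338), the β chain of the vitronectin receptor αvβ5, held 30.9, 38.5 and 47.4 CPM with vehicle and 43.0, 43.9 and 61.3 with β-NMN. The groups overlapped through vehicle 3, the highest vehicle library, and Itgb5 rose 1.24-fold (log2 0.31, SE 0.12, adjusted p = 0.037). The call was lost without vehicle 2, 5 or 6 or β-NMN 6 (log2 0.32, 0.32, 0.26 and 0.25, adjusted p = 0.053, 0.057, 0.083 and 0.056). Itgb3 (chromosome 11, 104608000 to 104670476), the β chain of platelets and osteoclasts, was the scarcest member at 5.94 to 18.2 CPM with vehicle and 5.05 to 12.1 with β-NMN. Its log2 difference of -0.54 (SE 0.26, adjusted p = 0.10) was not called, but it was called without vehicle 1 (-0.63, adjusted p = 0.040) or without β-NMN 2 (-0.68, adjusted p = 0.047).

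Of the 10 members, 1 was called lower and 4 were called higher in peritoneal cells. Over all 14985 genes tested, 51.6% were called, 27.9% lower and 23.7% higher, so the share of members called, 5 of 10, was close to the background. Groups did not overlap for 1 member that was lower, against 14.0% of genes, and for 1 that was higher, against 12.6%. The median log2 difference was -0.08 over the members and -0.02 over all genes. With the 5 deepest libraries alone Itgal, Itgax and Itga4 were called, and with the other 7 alone Itgal and Itgav. Itgal had log2 differences of -2.61 and -2.58 in these depth classes and was called each time 1 library was left out.

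Markers of other cells moved beside Itgal in the plated peritoneal cells, where 27.9% of all genes were called lower and 23.7% higher. All 5 natural killer cell markers fell, and their sum ran from 41.3 to 223 CPM with vehicle and from 13.8 to 34.6 with β-NMN. Of 8 neutrophil markers tested, 6 fell and 1 rose, and the sum of the list ran from 495 to 1007 CPM and from 335 to 468, or from 111 to 318 and from 20.8 to 52.3 without Csf3r, which made up 80.4% of it. S100a8, an alarmin gene of neutrophils and of activated monocytes, went from 87.4 ± 35.4 CPM to 2.78 ± 1.46 (SD, n = 6 each). Of 7 T cell markers 5 were lower and 1 (Lck) was higher, 4 of 6 B cell markers were lower (sums of 43.5 to 196 and 27.2 to 94.4 CPM), and the T cell sum ran from 28.9 to 61.9 CPM and from 44.4 to 65.9, or from 6.06 to 20.8 and from 3.58 to 9.93 without Lck, which made up 80.3% of it. Of 5 pan-leukocyte genes 1 (Laptm5, log2 0.94) was higher, 2 (Coro1a and Lcp1, -0.95 and -0.77) were lower and 2 were not called, among them Ptprc at 967 ± 203 and 889 ± 46.2 CPM (edgeR adjusted p = 6.1e-06, 4.8e-05, 1.9e-05 and 0.46). Of 10 macrophage markers 3 were higher and 1 lower, with sums of 7645 to 14120 and 11297 to 12950 CPM. Of 8 resident peritoneal macrophage markers 4 were higher and 2 lower, while their sum was 2724 to 5516 CPM with vehicle and 747 to 1456 with β-NMN. Saa3, an acute-phase gene that fell by 2.41 on the log2 scale (adjusted p = 1.8e-06), made up 91.3% of that sum, and the other 7 markers summed to 140 to 226 CPM with vehicle and 143 to 344 with β-NMN, which overlapped. Of 6 dendritic cell markers 3 were lower (Zbtb46, Flt3 and Xcr1, log2 -1.83, -1.22 and -1.16) and 2 higher (Cd209a and Clec10a, 1.09 and 0.90). Their sum was 38.2 to 58.5 and 23.5 to 25.8 CPM, or 15.0 to 20.1 and 15.4 to 18.5 without Zbtb46, which made up 50.4% of it. Whether a change in cell makeup took part in the fall of Itgal or the rise of Itgax was not tested.

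Ratios of 2 subunit counts within a library need no library scaling, so their change between groups does not depend on it. They compare mRNA read counts, not corrected for gene length, and do not measure the protein chains. The log2 ratio of Itgal to Itgb2 ran from -4.31 to -2.96 with vehicle and from -6.31 to -5.83 with β-NMN. The ratio was thus lower in each β-NMN library than in any vehicle library, by 2.58 on the log2 scale or 6.00-fold (SE 0.22, exact permutation p = 0.0022, adjusted over 12 ratios p = 0.013). Itgal against Itgam was lower by 2.45 (SE 0.27, exact permutation test, adjusted p = 0.013), again with no overlap. The other 10 ratios did not pass.

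Of those 10 ratios, 5 lay just above the threshold, all at an adjusted p of 0.052 by the exact permutation test. Itgax was higher against Itgb2 (log2 difference 0.71, SE 0.25) and against Itgam (0.85, SE 0.31). Itga4 was lower against Itgb1 (-0.54, SE 0.18), and Itgav was higher against Itgb3 (0.98, SE 0.37) and Itgb1 (0.21, SE 0.07). The ratio of Itgam to Itgb2, the chains of complement receptor 3, differed by -0.13 (SE 0.13, adjusted p = 0.35), and that of Itgav to Itgb5 by 0.15 (SE 0.13, adjusted p = 0.35).

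**Figure D2:**
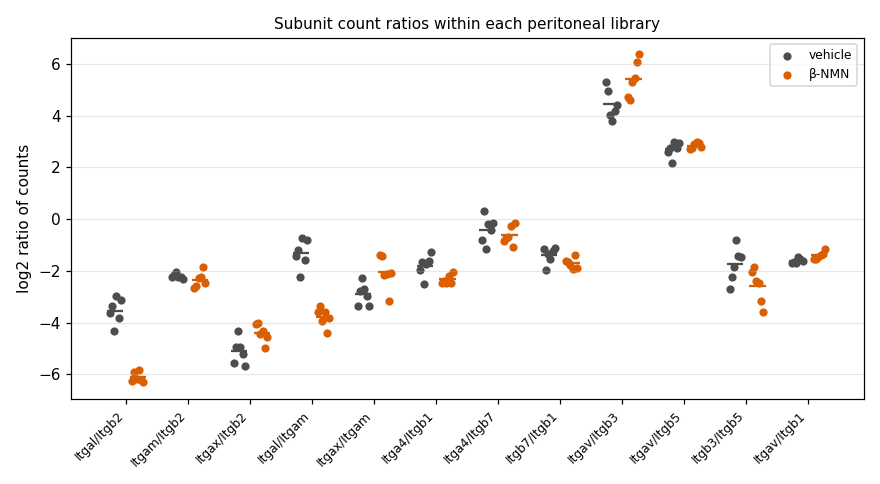
Log2 ratio of the counts of 2 integrin subunits (y axis) within each of the 12 peritoneal libraries, for 12 subunit pairs (x axis); points are libraries, vehicle in grey and β-NMN in orange, and lines are means. Itgal/Itgb2 and Itgal/Itgam are the pairs whose groups do not overlap, at a log2 difference of -2.58 and -2.45.

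The genes that integrins work with were counted in 5 lists, in which 43 of 87 genes tested were lower and 18 higher in peritoneal cells, where 27.9% and 23.7% of all genes were called in these directions, with a median log2 difference of -0.37 against -0.02 over all genes. Of 13 other integrin subunits tested, 7 fell and 1, Itga6, rose. Itga9, a chain for tenascin and VCAM1, fell from 18.03 to 30.3 CPM with vehicle to 6.60 to 12.9 with β-NMN (log2 -1.47, adjusted p = 1.2e-05). The collagen receptor chains Itga1 (-1.38) and Itga2 (-1.14) and Itgb8 (-1.13), whose αv pair frees TGF-β, fell as well (edgeR adjusted p = 5.7e-05, 0.00065 and 0.00012).

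Ligands and counter-receptors made up the list with the lowest median, -0.74. Of 21 genes tested 14 were lower, beside 27.9% of all genes, and 3 were higher, beside 23.7%. Those 3 were Spp1, which encodes osteopontin, Mfge8, a bridge between dying cells and αv integrins, and Vwf. C3, the complement protein whose fragment iC3b is bound by αMβ2 and αXβ2, held 1102 to 1369 CPM with vehicle and 292 to 572 with β-NMN (log2 -1.75, adjusted p = 4.3e-07). Fn1, fibronectin, fell by 1.45 and Thbs1, a matrix glycoprotein bound by αvβ3, fell by 1.62 on the log2 scale (adjusted p = 4.2e-06 and 2.9e-05). Thy1, a surface glycoprotein of T cells and fibroblasts that integrins can bind, fell by 2.87 (7.03 to 44.4 CPM against 2.42 to 3.46, adjusted p = 7.0e-06). All 5 fibroblast markers tested were lower too, their sum at 111 to 1173 CPM with vehicle and 22.9 to 100.0 with β-NMN, and the part of such cells in these falls was not tested.

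Among the genes of inside-out activation, 8 of 19 tested were lower and 4 higher, at a median of -0.09, beside 27.9% and 23.7% of all genes. Fermt3, the kindlin of blood cells, fell from 138 to 179 CPM with vehicle to 52.3 to 68.7 with β-NMN, with no overlap (log2 -1.33, SE 0.09, edgeR adjusted p = 5.5e-08). Skap1, an adaptor best known from T cells, fell by 2.33 at low levels of 1.38 to 3.73 and 0.256 to 0.603 CPM (adjusted p = 1.3e-05). Cyth1, a guanine nucleotide exchange factor that binds the β2 tail, fell by 0.74 and Dok1, a docking protein, rose by 0.64 on the log2 scale (adjusted p = 1.6e-05 and 0.00013). Tln1, a talin that binds the β tail together with kindlin, had a log2 difference of 0.27 and was not called.

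Of 23 outside-in signalling genes tested, 11 were lower and 4 higher (median -0.25), beside 27.9% and 23.7% of all genes. Parvg, the leukocyte parvin, fell by 1.34 with ranges of 17.8 to 25.1 and 7.00 to 9.32 CPM (edgeR adjusted p = 3.3e-07). Pxn, the focal adhesion adaptor paxillin, fell by 0.79 and Vav2 by 0.83 on the log2 scale, while Tyrobp, the adaptor DAP12 of myeloid receptors, rose by 0.76 (adjusted p = 2.9e-06, 0.00017 and 3.7e-05).

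The list of partners and rolling receptors had 6 of 11 genes higher and 3 lower, beside 23.7% and 27.9% of all genes, and a median of 0.27. Cd47, the thrombospondin receptor that associates with integrins, held 391 to 637 CPM with vehicle and 676 to 779 with β-NMN (log2 0.45, adjusted p = 0.0030), and the tetraspanin Cd9 rose by 0.48 (adjusted p = 0.00085). Another tetraspanin, Cd81, fell by 0.86 and the selectin Sele by 0.84 on the log2 scale (adjusted p = 0.00020 and 0.00029).

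**Figure D3:**
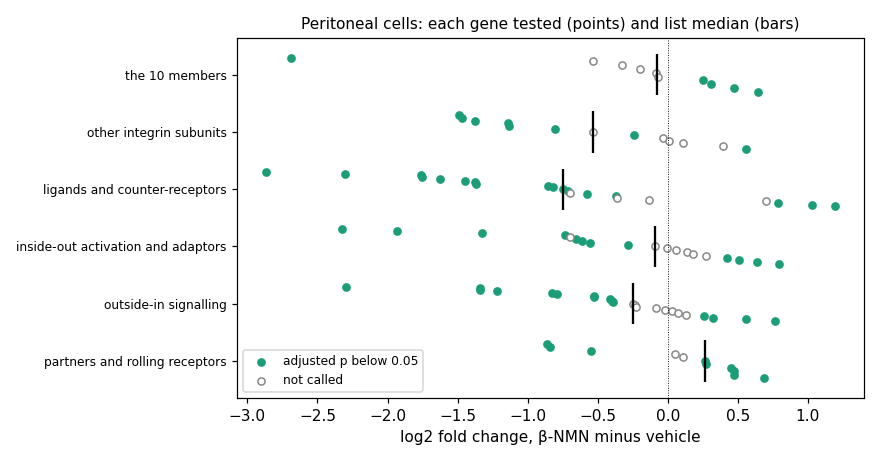
Log2 fold change of β-NMN against vehicle (x axis) in peritoneal cells for each gene tested, by list (rows); green points passed an adjusted p of 0.05 and open points did not, and bars are list medians. The ligand list sits lowest, at a median of -0.74, and the list of partners and rolling receptors highest, at 0.27.

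Genes whose log2 CPM followed a member most closely over the 12 peritoneal libraries, after each group's mean was removed, were sought among 9637 genes. For Itgb2 they were Dnajb6, Rcn2 and Tmc6 (Pearson r = 0.91, 0.86 and 0.84), for Itgb1 Hif1a, Rab10 and Slx4ip (0.95, 0.90 and 0.89) and for Itgav Pbrm1, Ythdf3 and Zfyve16 (0.94, 0.94 and 0.92). These values describe libraries that share depth and scaling. Among the members themselves Itgb1 and Itgav had r = 0.74 and Itgal and Itgb5 r = -0.77.

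In CLP hearts the members' order by level was different. Per kilobase Itgb1 was highest, at a median of 136 CPM per kb over 6 libraries (116 to 154), ahead of Itgb5 at 68.7 (35.9 to 76.2), and these did not overlap with each other or with the rest. Itgb2 at 6.75 (5.55 to 8.86) and Itgam at 5.66 (4.52 to 7.32) overlapped, as did Itgav at 2.05 (1.65 to 2.85) and Itgb3 at 1.74 (1.15 to 7.95), whose upper end reached the Itgb2 range. Itgal, Itgb7, Itga4 and Itgax had medians of 0.526, 0.242, 0.146 and 0.0900 CPM per kb, each below 1 CPM per kb in every heart.

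**Figure D4:**
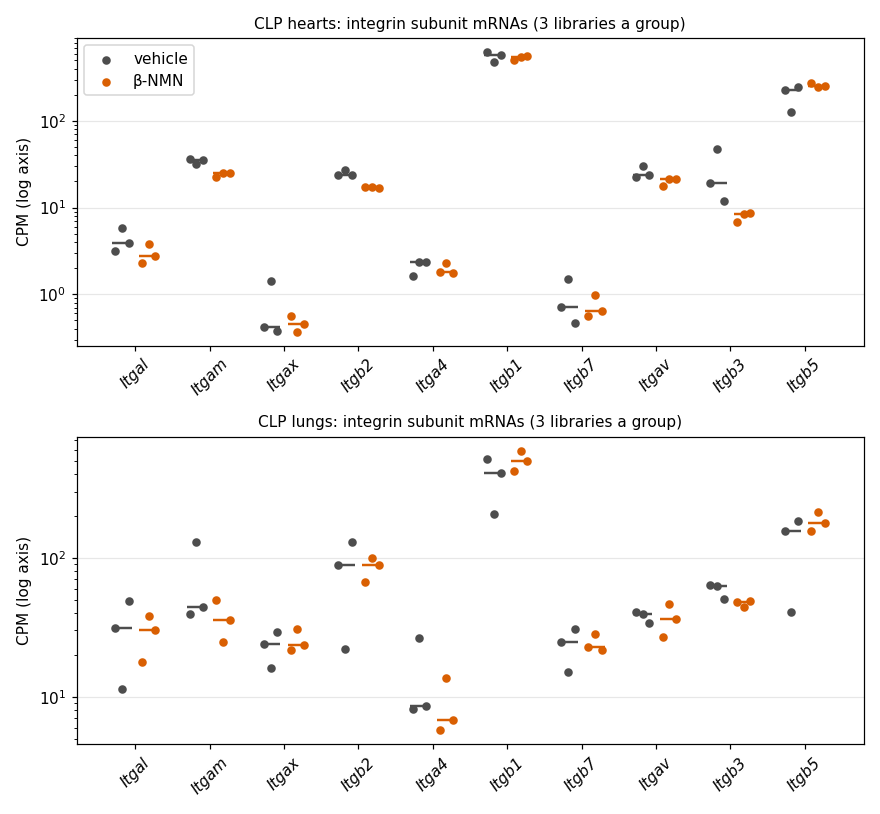
CPM (log axis) of the 10 integrin subunit mRNAs in CLP hearts (top) and lungs (bottom), 3 vehicle (grey) and 3 β-NMN (orange) libraries each; lines are medians and points run from replicate 1 to 3 from left to right. In hearts Itgam, Itgb2, Itgav and Itgb3 are lower in each β-NMN library, and in lungs vehicle library 2 departs from the others for Itgam, at 131 CPM, and Itgb2, at 22.2 CPM.

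Both chains of complement receptor 3 were lower in the 3 hearts given β-NMN. Itgb2 was at 23.9, 27.0 and 23.9 CPM in vehicle hearts 1, 2 and 3 and at 17.3, 17.1 and 16.9 CPM in β-NMN hearts 1, 2 and 3. Itgam was at 36.8, 31.8 and 35.6 CPM with vehicle and at 22.7, 24.7 and 25.0 with β-NMN. For both genes the groups did not overlap, at log2 differences of -0.54 (SE 0.11) and -0.52 (SE 0.11), and neither was called (unadjusted p = 0.0017 and 0.0024 by the edgeR quasi-likelihood test, adjusted p = 0.44 each). Neutrophil markers were lower in the same hearts. The sum of that list ran from 27.0 to 44.4 CPM with vehicle (27.3 in heart 2) and from 16.1 to 19.97 with β-NMN, without overlap, and the median log2 difference of 9 markers tested was -0.89, with 0 called by edgeR. S100a8 was at 7.26 ± 2.84 and 4.10 ± 0.102 CPM and Csf3r, the G-CSF receptor, at 6.23 ± 1.28 and 3.60 ± 0.432 (SD, n = 3 each). The part of neutrophils in the Itgam and Itgb2 values was not tested.

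Itgb3 had the largest log2 difference among the heart members. It was at 19.4, 46.9 and 11.9 CPM in vehicle hearts and 6.81, 8.54 and 8.67 CPM in β-NMN hearts, without overlap. The log2 difference was -1.70 (SE 0.48, edgeR unadjusted p = 0.0096, adjusted p = 0.44), and without vehicle heart 2, which held the highest value, it was -0.97. The summed platelet list was at 17.8 to 31.3 CPM in vehicle and 11.6 to 16.7 CPM in β-NMN hearts. The highest sum was in vehicle heart 2, and 0 of 5 genes tested were called by edgeR. Without Pf4, which made up 38.4% of it, the sum was at 11.52 to 22.2 and 7.82 to 11.53 CPM, which overlapped. Vehicle heart 2 was then at 12.7 CPM and not the highest. Genes of the list included Itga2b, the platelet partner of β3, at 8.56 ± 3.36 and 3.57 ± 1.16 CPM (SD, n = 3 each), and Pf4 at 11.1 ± 6.56 and 4.22 ± 0.843. Gp1ba went the other way, at 3.20 ± 1.48 and 3.98 ± 0.167. Without vehicle heart 2 the log2 differences were -1.27 for Itga2b, -0.80 for Pf4 (from -1.39) and -0.03 for Gp1ba (from 0.32). The part of platelets in the Itgb3 values was not tested.

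Itgav was at 22.5, 30.6 and 23.7 CPM in vehicle hearts and 17.7, 21.4 and 21.2 CPM in β-NMN hearts, again without overlap, at a log2 difference of -0.35 (SE 0.16, adjusted p = 0.44). The highest value was again that of vehicle heart 2, and without it the difference was -0.20 (adjusted p = 0.60). Itgb5, an αv partner more abundant than Itgb3 in each heart, was at 227, 128 and 244 CPM with vehicle and 271, 243.9 and 251 with β-NMN. The low vehicle value was that of heart 2, the library that stood apart. Itgb5 differed by 0.36 (SE 0.25, adjusted p = 0.52), and by 0.11 without that library. Itgb1 ran from 473 to 628 CPM with vehicle and from 510 to 555 with β-NMN (log2 difference -0.05, SE 0.16, and -0.16 without heart 2).

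The remaining leukocyte chains were low in hearts and their groups overlapped. Itgal lay between 2.31 and 5.74 CPM over the 6 hearts, Itga4 between 1.61 and 2.36, Itgb7 between 0.466 and 1.505 and Itgax between 0.370 and 1.41. The highest Itgal, Itgax and Itgb7 values were those of vehicle heart 2, and without it the log2 differences were -0.25 for Itgal (from -0.53), 0.18 for Itgax (from -0.70), 0.29 for Itgb7 (from -0.30) and -0.03 for Itga4 (from -0.11).

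None of the 10 members was called in hearts by the edgeR quasi-likelihood test, 3 had an unadjusted p below 0.05 (Itgam, Itgb2 and Itgb3), and DESeq2 called these 3, at adjusted p of 0.045, 0.014 and 0.021, where it called 1.87% of 15243 genes with an adjusted p, 1.63% as lower. Without vehicle heart 2 DESeq2 called the same 3 members, and 2.77% of genes. Over 16245 genes tested by edgeR, the share called was 0% and 11.3% had an unadjusted p below 0.05. Groups did not overlap for 4 members, each lower with β-NMN, where 11.5% of all genes were lower without overlap. The median log2 difference was -0.43 over the members and -0.01 over all genes, and without vehicle heart 2 it was -0.18 over the members and -0.0020 over all genes. With 3 against 3 hearts an exact permutation test cannot go below p = 0.1.

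Genes of the 5 lists were not called in hearts either, with 20 of 92 at an unadjusted p below 0.05 and a median log2 difference of -0.19 (-0.12 without vehicle heart 2). The counter-receptors of the leukocyte integrins on vessels were among those with the smallest p. Icam1, which LFA-1 and Mac-1 bind, was at 58.7 to 105 CPM with vehicle and 27.7 to 38.9 with β-NMN, and Vcam1, the ligand of VLA-4, at 34.3 to 60.3 and 17.2 to 25.9 (log2 differences -1.18 and -1.13, edgeR adjusted p = 0.44 each). The endothelial selectins Sele and Selp, on which leukocytes roll before integrins arrest them, differed by -2.94 and -3.58, and Selp by -2.32 without vehicle heart 2. The summed endothelial markers went the other way, at 611 to 692 CPM with vehicle and 748 to 912 with β-NMN. So did the cardiomyocyte sum, at 29578 to 47991 and 50534 to 55331 CPM. Vehicle heart 2 held the lowest value of both sums. Without vehicle heart 2 the log2 differences of the 5 cardiomyocyte markers were 0.018 to 0.29, from 0.18 to 0.72. Of the endothelial markers Cdh5, Kdr, Tie1, Tek and Egfl7 had log2 differences of 0.19 to 0.65, and Cldn5 and Emcn of -0.21 and -0.15 (0.18 and 0.13 without vehicle heart 2). Neither sum overlapped between the groups, and 0 of 7 endothelial and 0 of 5 cardiomyocyte markers were called by edgeR. Without Myh6, which made up 61.8% of it, the cardiomyocyte sum did overlap, at 11626 to 18271 CPM with vehicle and 18092 to 21510 with β-NMN. The part of cell makeup in the vascular genes was not tested.

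The other heart genes named by the rule were lower without overlap as well. The platelet chain Itga2b and Itgb8 had log2 differences of -1.26 and -2.11, the Src family kinase Fgr and the adaptor Lcp2 of -1.58 and -0.65, and the RAP1 effector Rassf5 and Rap1b itself of -0.79 and -0.62. Without vehicle heart 2 Itgb8 differed by -1.10 and Rap1b by -0.31. None was called (edgeR adjusted p = 0.44 each).

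In CLP lungs Itgb1 led again, at a median of 112 CPM per kb (50.8 to 145), with Itgb5 at 46.9 (11.5 to 60.2) and Itgb2 at 29.0 (7.29 to 42.5), 3 neighbours whose ranges overlapped. Itgb7, Itgb3 and Itgam followed at 8.61, 8.43 and 8.27 CPM per kb, Itgax, Itgal and Itgav at 4.96, 4.68 and 3.52, and Itga4 was lowest at 0.600 (0.410 to 1.90).

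Vehicle lung 2 lay far from the other vehicle lungs for Itgb2 and Itgam. In vehicle lungs 1, 2 and 3, Itgb2 was at 88.5, 22.2 and 130 CPM, against 67.3, 99.7 and 88.7 in the β-NMN lungs. Itgam went the opposite way in that library, at 39.2, 131 and 43.9 CPM with vehicle and 49.4, 24.7 and 35.5 with β-NMN. Its total count, 8915366, was the lowest of the 6 lungs, as was its macrophage marker sum of 1539 CPM, a list of which Lyz2 made up 86.1%. Its pan-leukocyte, T cell and endothelial sums, at 1181, 41.5 and 4461 CPM, were the highest of the 6. These sums rested in part on single genes. Without Laptm5 its pan-leukocyte sum was 443 CPM and without Cldn5 its endothelial sum was 962 CPM, each the lowest of the 6, while its T cell sum without Cd2, 32.2 CPM, was still the highest.

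Itga4 and Itgb5 also had this library at an edge, in opposite directions. Itga4 was at 8.16, 26.6 and 8.62 CPM with vehicle and 5.73, 13.7 and 6.86 with β-NMN, while Itgb5 was at 155, 40.9 and 183 CPM with vehicle and 155, 214 and 178 with β-NMN. With this library left out, the log2 difference was -0.19 for Itgam (from -0.96), -0.36 for Itgb2 (from 0.08), 0.07 for Itga4 (from -0.70), 0.13 for Itgb1 (from 0.42), 0.11 for Itgb5 (from 0.53), -0.48 for Itgal (from -0.09), -0.06 for Itgax (from 0.13), -0.20 for Itgb7 (from 0.03) and -0.04 for Itgav (from -0.06). None was called with or without it.

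Itgb3 was the member whose lung groups did not overlap. It was at 63.4, 62.6 and 50.6 CPM in vehicle lungs and 48.1, 44.4 and 48.9 CPM in β-NMN lungs (log2 difference -0.32, SE 0.20, edgeR adjusted p = 0.97), where 3.75% of genes were lower without overlap. The groups overlapped for Itgal, at 31.2, 11.4 and 48.7 CPM with vehicle and 17.7, 38.0 and 30.3 with β-NMN, and for Itgax, at 24.0, 16.2 and 29.1 with vehicle and 21.7, 30.9 and 23.7 with β-NMN. Itgav and Itgb7 lay within 26.9 to 46.2 and 15.2 to 30.9 CPM over the 6 lungs.

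None of the 10 members was called in lungs by edgeR or by DESeq2 (which called 0.0153% of genes), and 0 had an unadjusted p below 0.05, where 1.77% of 17008 genes did and 0% were called. The members' median log2 difference was -0.02, against 0.00057 over all genes, and -0.13 against 0.024 without vehicle lung 2. Of 95 genes tested in the 5 lists, 0 were called by edgeR and 4 had an unadjusted p below 0.05 (9 without vehicle lung 2, where 4.31% of all genes did). The fibrinogen chains Fgg and Fga, ligands of αMβ2 and of the platelet integrin, were lower without overlap (log2 differences -1.54 and -1.92), as were the urokinase receptor Plaur, which associates with integrins, and Selp (-1.07 and -1.20). Itgb6, Itga7, Fyb and Lcp2 had log2 differences of -0.97, -0.76, -0.86 and -0.40, and Rasgrp2 and Lims1 of 0.64 and 0.49, none called (edgeR adjusted p = 0.97 each). Without vehicle lung 2 the values were -0.42 for Plaur, -0.43 for Itgb6, -0.24 for Itga7, -0.26 for Fyb and 0.37 for Rasgrp2.

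**Figure D5:**
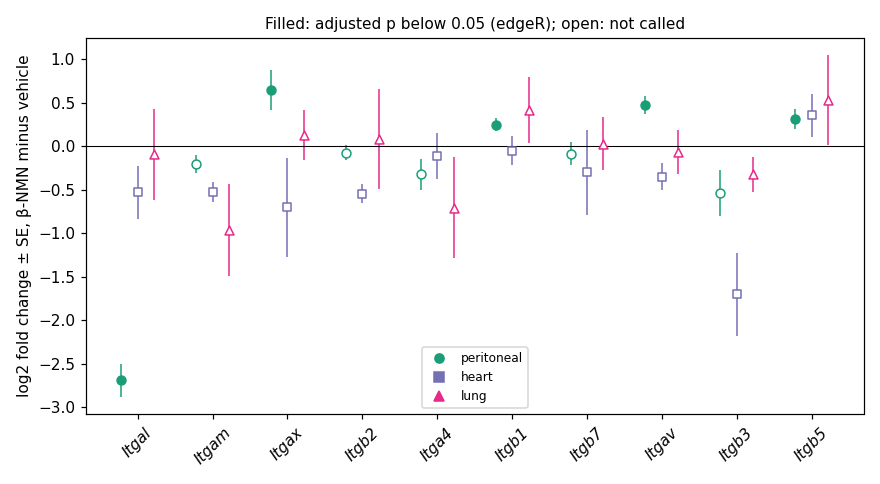
Log2 fold change of β-NMN against vehicle with its standard error (y axis) for each member (x axis) in peritoneal cells (circles, 6 libraries a group), CLP hearts (squares, 3 a group) and CLP lungs (triangles, 3 a group); filled symbols passed an adjusted p of 0.05. The peritoneal Itgal value of -2.69 lies below all others, and no heart or lung symbol is filled.

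Whether the β-NMN difference itself differed between heart and lung was tested as an interaction over the 12 CLP libraries. This fit held no mouse block, so the 2 organs of 1 mouse were treated as separate samples. By edgeR 0 of the 10 members were called, as were 0% of 18318 genes, and 1 member, Itgb3, had an unadjusted p below 0.05, where 4.35% of genes did. The Itgb3 difference in hearts minus that in lungs was -1.39 (SE 0.54, edgeR unadjusted p = 0.024, adjusted p = 0.96), and -0.67 without vehicle mouse 2. The peritoneal experiment used another insult, cell type and table, so its differences were not tested against those of the organs.

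Because both organs came from the same 6 mice, lung and heart were compared within mouse, on CPM scaled over the 12 libraries together. In all 6 members were higher in lung and 2 in heart, out of 10, where 34.5% and 29.6% of 16525 genes were called in these directions. Itgax was 29.2-fold higher in lung, at 11.9 to 24.6 CPM against 0.474 to 1.76 in heart (log2 4.87, SE 0.42, edgeR adjusted p = 2.1e-05), and higher in 6 of 6 mice. Itgb7 was 19.99-fold higher, at 11.1 to 25.0 CPM against 0.587 to 1.87 (log2 4.32, SE 0.36, adjusted p = 1.7e-05), also in 6 of 6 mice.

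The other leukocyte chains that were called had smaller fold differences. Itgal was 5.18-fold and Itga4 3.24-fold higher in lung, each in 6 of 6 mice (log2 2.37 and 1.70, adjusted p = 0.00056 each), and Itgb3 2.60-fold higher in 5 of 6 mice (adjusted p = 0.0044). Itgb2 was 2.39-fold higher in 5 of 6 mice (log2 1.26, SE 0.37, adjusted p = 0.017), and this call was lost without vehicle mouse 3, β-NMN mouse 2 or β-NMN mouse 3 (log2 1.13, 1.12 and 1.14, adjusted p = 0.056, 0.058 and 0.053). Itgam, its partner in complement receptor 3, was at 28.7 to 47.1 CPM in heart and 19.7 to 96.1 in lung, higher in lung in 2 of 6 mice, and was not called (log2 0.04, SE 0.26, and -0.34 with adjusted p = 0.073 without vehicle mouse 2).

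The broadly expressed β chains ran the other way. Itgb1 was 2.01-fold and Itgb5 2.46-fold higher in heart, each in 6 of 6 mice (adjusted p = 0.0020 and 0.00070). Itgav, which pairs with both, was at 22.3 to 38.1 CPM in heart and 20.9 to 36.8 in lung and was not called (log2 0.08, SE 0.14, adjusted p = 0.61, and 0.04 without vehicle mouse 2). Without vehicle mouse 2 the 8 called members were called again, with log2 differences of 5.16 for Itgax, 4.50 for Itgb7, 1.51 for Itgb2 and -0.96 for Itgb1.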

How the data were processed

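Processed RNA sequencing data of 24 libraries were used, 12 of peritoneal cells and 12 of CLP organs. Both deposited tables hold raw read counts per gene symbol, which the authors made with STAR 2.7.3a and featureCounts 2.0.0 on mm10, per the submitters' processing notes; the strand setting and annotation are not given in the sources used here. Itga4, Itgam and Itgav overlap other gene models (Cerkl, Gm49368, Dnmt3l-ps1 and Gm13684), with which reads could be shared. A pair of β-NMN hearts is numbered 3 in the titles, and the one whose mouse gave lung 2 was taken as replicate 2.

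Each tissue was fitted alone in edgeR 4.0.16 (R 4.3.3), by its legacy quasi-likelihood F-test after TMM scaling, both as in the study's methods, and after filterByExpr, a low-count filter added here, and p-values were adjusted by Benjamini-Hochberg over all genes tested. The threshold for a call was an adjusted p of 0.05. At that threshold the study reports differentially expressed genes in hearts and in lungs, whereas this fit called 0% of genes in each organ. The cause of that difference was not tested. Log2 CPM used a prior count of 2 and ratios a pseudocount of 0.5. Lung and heart levels were compared with the mouse as a block, and the interaction was fitted on group means without that block. Single values were compared with exact permutation tests. The fit was tested on simulated data. The members and gene lists were chosen with earlier results of these data known. Named genes were the 10 members, of each other list the 4 (peritoneal) or 2 (organs) smallest p, and the 3 genes with the highest r to Itgb2, Itgb1 and Itgav where mean log2 CPM was 1 or more. Alternatives were DESeq2 1.42.0 and its size factors, limma-voom (limma 3.58.1), the newer quasi-likelihood form, no filter, a replicate block, depth classes and leaving out each library. The study's methods give 6 mice a group for peritoneal cells, but the labels do not say in words which animal each library came from, so p-values measure the spread between these samples. Depth was lowest in the lungs, and depth and the spread between libraries both limit the precision. Positions and exon lengths are from GENCODE M21 (GRCm38) and promoters from RefSeq (GRCm38.p6).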

Additional observations from a re-analysis of the deposited data

Results flagged for a closer look

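Of 20 peritoneal groups of 6 libraries, 2 held a value far from the others, by a Dixon test that chance passes in about 1 of 20 groups. Itgb7 was at 342 CPM in β-NMN library 5, where the nearest of the other β-NMN libraries was at 271 CPM. On the log2 CPM scale used for the test the gap made up 0.66 of the group's range. Itgb5 was at 61.3 CPM in β-NMN library 6, where the nearest was at 46.3 CPM and the gap made up 0.79 of the log2 CPM range. Without that library the Itgb5 difference was no longer called (log2 0.25, adjusted p = 0.056 by edgeR).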

How the results depend on the processing

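Against 5 members called in peritoneal cells, the replicate block called 3, the 5 deepest libraries alone 3 and the other 7 alone 2, both depth settings being chosen after seeing the data, and leaving out 1 library gave 3 (without vehicle 5 or 6) to 6. Itgal and Itgav were called under each alternative except that Itgav was not among the deepest libraries. Without a low-count filter Itgb1 and Itgb5 were lost and Itgb3 gained, and limma-voom gained Itgam and Itga4. In hearts DESeq2 called 3 members (and 1.87% of genes), and the other alternatives called 0 as edgeR did. The count of ratios was 2, 0 with the replicate block, in which 6 pairs limit the p, and 2 to 5 on leaving out 1 library, the highest without vehicle 3 (4 without β-NMN 5). The cause of these changes was not tested beyond the smaller number of libraries. The replicate numbers did not pair the peritoneal samples (correlations of deviations -0.17 to 0.13, best with the own number in none of the 6 pairs), and under the block Itgb1 and Itgb5 lost their calls (adjusted p = 0.050 and 0.078). In hearts the correlations were 0.073 to 0.24, each best with its own number, and in lungs -0.52 to 0.30, and the block changed no call there. Heart and lung of 1 mouse had correlations of 0.064 to 0.17.

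Reversed signs were confined to differences that were not called. They were Itgb2 at 0.18 in the deepest and Itgb7 at 0.019 in the other peritoneal libraries. Under limma-voom they were Itgax 0.087, Itga4 0.12 and Itgb7 0.17 in hearts and Itgax -0.039, Itgb2 -0.16 and Itgb7 -0.20 in lungs. Itgal in lungs was 0.018 with the replicate block. For lung minus heart, Itgam was -0.016 with DESeq2 size factors, -0.047 without a filter and -0.045 with DESeq2, and Itgav -0.0070 without a filter. Leaving out 1 library or mouse, peritoneal Itgb7 ran from -0.16 to 0.0033. In hearts Itgb1 ran from -0.16 to 0.045, Itgax from -0.99 to 0.18 and Itgb7 from -0.59 to 0.29. In lungs Itgal ran from -0.48 to 0.43, Itgav from -0.26 to 0.11, Itgax from -0.063 to 0.35, Itgb2 from -0.36 to 0.62, Itga4 from -1.17 to 0.066 and Itgb7 from -0.20 to 0.28. For the heart minus lung difference Itgal ran from -1.01 to 0.26, Itgam from -0.37 to 0.71, Itgax from -1.35 to 0.24, Itga4 from -0.057 to 0.86, Itgb7 from -0.87 to 0.51 and Itgb5 from -0.37 to 0.024, and for lung minus heart Itgam ran from -0.34 (without vehicle mouse 2) to 0.18.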
